A study of Mus musculus with 20 samples.

Results

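Endothelial cells of the heart were compared with endothelial cells of the brain in 3-month-old wild-type C57BL/6 mice by bulk RNA sequencing. The comparison took in 7 of the 20 samples of the series, and 2 heart runs of 1 library were summed, which left 6 of 18 libraries, 3 from heart and 3 from brain. Per the labels, organs were minced and digested with collagenase II and DNase I, and cells carrying the endothelial surface protein CD31 were enriched on magnetic beads. CD31-positive cells lacking GP38 and CD45 were then sorted by flow cytometry. The labels name no treatment, transgene or allele for either group, and the groups differ by organ. They also differ in part by sequencing lane, which the run names in the labels give as 1, 2 and 1 for heart libraries 1 to 3 (the first run of library 3) and 2, 3 and 2 for brain. The sort does not separate capillary, arterial, venous or endocardial cells, so a library is a mixture of them. Whether the 3 libraries of an organ come from different animals is not given in the labels, and p-values here reflect library-to-library spread, which may be technical. Of the summed pair, 1 run carries an age of 4 months in one field and 3 months in its title, and it was kept at 3 months.

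Endothelium lines every blood vessel and takes on properties of the organ it supplies. In the brain it forms the blood-brain barrier: tight junctions close the space between cells, vesicle traffic is held low, and nutrients cross on dedicated carriers while efflux pumps return drugs to the blood. Wnt/beta-catenin signalling from neighbouring cells induces and keeps this state. In the heart, capillaries are continuous but carry many caveolae, and they move fatty acids from the blood to muscle cells, which burn them as their main fuel.

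The total count per library was 39307741, 38783581 and 87598835 in heart and 42161982, 43581356 and 42577281 in brain. CPM stands for TMM-scaled counts in a common library total, and means are followed by ± the SD over the 3 libraries of a group. Fold changes are log2, heart over brain, ± SE, so that a negative value is higher in brain. Across genes, which are not independent replicates, the correlation of log2 CPM was 0.908 to 0.933 between libraries of 1 organ and 0.855 to 0.869 between libraries of different organs. Pecam1, which encodes CD31, stood at 1851, 1501 and 1491 CPM in heart and 1602, 1165 and 1506 CPM in brain, with a log2 fold change of 0.18 ± 0.13 (adjusted p = 0.456). Ptprc, which encodes CD45, was at 2.700 ± 2.61 CPM in heart and 2.64 ± 3.95 CPM in brain, and Pdpn, which encodes GP38, had 0 counts in heart and a mean of 0.105 CPM in brain. Zbtb16, a transcription factor gene induced by glucocorticoids, set the first library of each organ apart, with 74.1, 12.9 and 14.4 CPM in heart and 60.7, 15.8 and 15.5 CPM in brain.

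Markers of other cells are given here because some of them move with the results. Over all 18369 genes tested, 6.90% were higher in heart and 6.52% higher in brain. Counts of list members called, here and below, stand beside these shares. Summed over 13 fibroblast genes, the level was 464.6, 406.6 and 403.8 CPM in heart and 157.7, 105.7 and 94.1 CPM in brain, without overlap. Of these genes 7 were higher in heart and 0 in brain by edgeR (0 in brain also at an unadjusted p under 0.05 and by DESeq2; median log2 fold change 3.63, beside 0 over all genes tested), and the heart count was 4 without heart library 2, brain library 1 or brain library 2 and 3 without brain library 3. In bulk RNA fewer cells of a type and less RNA per cell cannot be told apart. The 18 pericyte and smooth muscle genes summed to 2384.8, 3291.6 and 4717.5 CPM in heart and 1978.4 to 2249.8 CPM in brain. The 20 leukocyte and microglial genes stayed low in both organs, at 51.4 to 63.9 CPM in heart and 44.3 to 51.8 CPM in brain, and 0 of 17 tested members passed the threshold of edgeR in either direction (1 in brain and 0 in heart at an unadjusted p under 0.05, and the same numbers by DESeq2). Cx3cr1 and Itgam, markers of microglia and other myeloid cells, had 0 counts in heart and means of 0.284 and 1.43 CPM in brain. The 11 platelet and red cell genes summed to 809.0 to 992.5 CPM in brain and 237.6 to 432.5 CPM in heart, and 5 were called in brain (3 without heart library 2, heart library 3 or brain library 3, and 2 with the lane term). Of 19 genes found in endothelium at large 5 were higher in heart and 4 in brain (median -0.04, from -0.08 without heart library 1 to 0.04 without heart library 2). Of 14 endocardial genes 2 were called in heart and 3 in brain (median 0.20, from -0.08 without heart library 2 to 0.27 without heart library 3). Of 10 lymphatic genes 1 was called in heart, or 2 without brain library 3, and 0 in brain by edgeR (median 1.60, with 0.58 without heart library 3 and 1.02 without brain library 1).

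RNA of neural marker genes was present at low levels in the brain libraries. Slc1a2, an astrocyte glutamate carrier, had 0 counts in heart and 3.67, 7.77 and 1.39 CPM in the brain libraries, and Mobp, a myelin gene, had 0 counts in heart and 6.92, 17.9 and 5.04 CPM in brain. Of 7 oligodendrocyte genes tested, 2 were called in brain and 1 (Pdgfra) in heart (median -0.04). The brain count was 1 without heart library 2 or 3, and the heart count 0 without heart library 2 or any brain library. Summed levels of the 12 listed genes overlapped, at 61.2 to 99.98 CPM in heart and 79.7 to 160.9 CPM in brain. Gfap and Aqp4, which mark astrocytes, were at 2.52 ± 2.54 and 1.55 ± 2.66 CPM in brain and did not pass the threshold. The neuronal genes Snap25 and Gad1 reached 0.903 and 1.76 CPM in brain, while Nefm and Gad2 had 0 counts in all 6 libraries. Summed over 13 listed neuronal genes, heart was higher, at 75.5 to 110.1 CPM against 45.4 to 54.8 CPM in brain, without overlap. Of 11 tested, 1 (Stmn2) was called in heart and 0 in brain by edgeR, with 2 in each at an unadjusted p under 0.05. The Stmn2 call was lost in 5 of 6 fits without 1 library (adjusted p up to 0.0904, without brain library 2). Ttr, which is abundant in choroid plexus, had 0 counts in heart and 0.738, 8.51 and 15.4 CPM in brain. The 11 astrocyte genes, of which 4 were called in brain and 3 in heart, nevertheless summed to 681 to 992 CPM in heart and 486 to 593 CPM in brain, since Gja1, which endothelium also expresses, was at 569 ± 141 CPM in heart and 243 ± 23.05 CPM in brain. In the reverse direction, Wt1 and Krt19 of a list of 5 tested mesothelial and epicardial genes were higher in heart, and the 7 listed genes summed to 44.4 to 55.5 CPM there and 0.0238 to 2.87 CPM in brain. Nearly all of the heart sum was Wt1, which endothelium can also express. The median log2 fold change of the list was 1.26, with 2 of 5 members negative, and -1.96 without heart library 3. The call of Krt19 was lost without brain library 1 or 2 (adjusted p = 0.0536 and 0.0562). The part of any of these cells in the results below was not tested.

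Of 18369 genes tested, 2466 differed between heart and brain (13.4%), 1268 of them higher in heart (6.90%) and 1198 higher in brain (6.52%). The 3 heart libraries and the 3 brain libraries did not overlap for 2374 of these genes, against 4843 of all genes tested (26.4%). The difference exceeded 2-fold for 963 genes higher in heart and 840 higher in brain, and 32-fold for 249 and 285 genes. The median log2 fold change of called genes was 1.80 in heart and -1.59 in brain. Genes called in either direction held 29.4% of the CPM of heart libraries and 33.3% of those of brain libraries. When each library was left out in turn, 1492 of the 2466 calls (60.5%) held in all 6 fits. A gene is described below as higher in an organ without further remark only if it held in all 6. With the sequencing lane as a term 1823 genes were called, 954 in heart and 869 in brain, and they held 1694 of the 2466 calls (68.7%). The lane term placed heart library 3 by its first run, although 44352938 of its 87598835 counts came from the second run. With the first run of that library alone 2450 genes were called, and they held 2431 of the 2466 calls. Counted by first run, lane 2 alone held 1 heart and 2 brain libraries at this age, too few for a comparison within a lane. The part of lane was otherwise not tested. Among the list members and the genes of largest difference described here, Ahsg, Gata6, Gja4, Hand2, Kdr, Krt19, Lcn2, Nr4a1, Slc12a2, Slc27a1, Slc30a10, Slc39a14, Tbx20, Tcf7l1, Tgfbr3, Tjp1 and Vldlr lost their calls with the lane term (adjusted p from 0.0505 to 0.380). Without all libraries numbered 1, a setting chosen after seeing the data, 1923 genes were called and held 1642 of the calls (66.6%). Of the same genes, Abcc6, Acvr1, Alcam, Art4, Hand2, Kdr, Krt19, Marveld2, Ptgs2, Slc12a2, Slc39a14, Tbx20, Tcf7l1 and Vldlr lost their calls there (adjusted p from 0.0530 to 0.238). Protein-coding genes made up 14767 of the genes tested and 15.6% of them were called, against 3.82% of 497 lincRNA genes and 5.55% of 1153 processed pseudogenes.

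**Figure D1:**
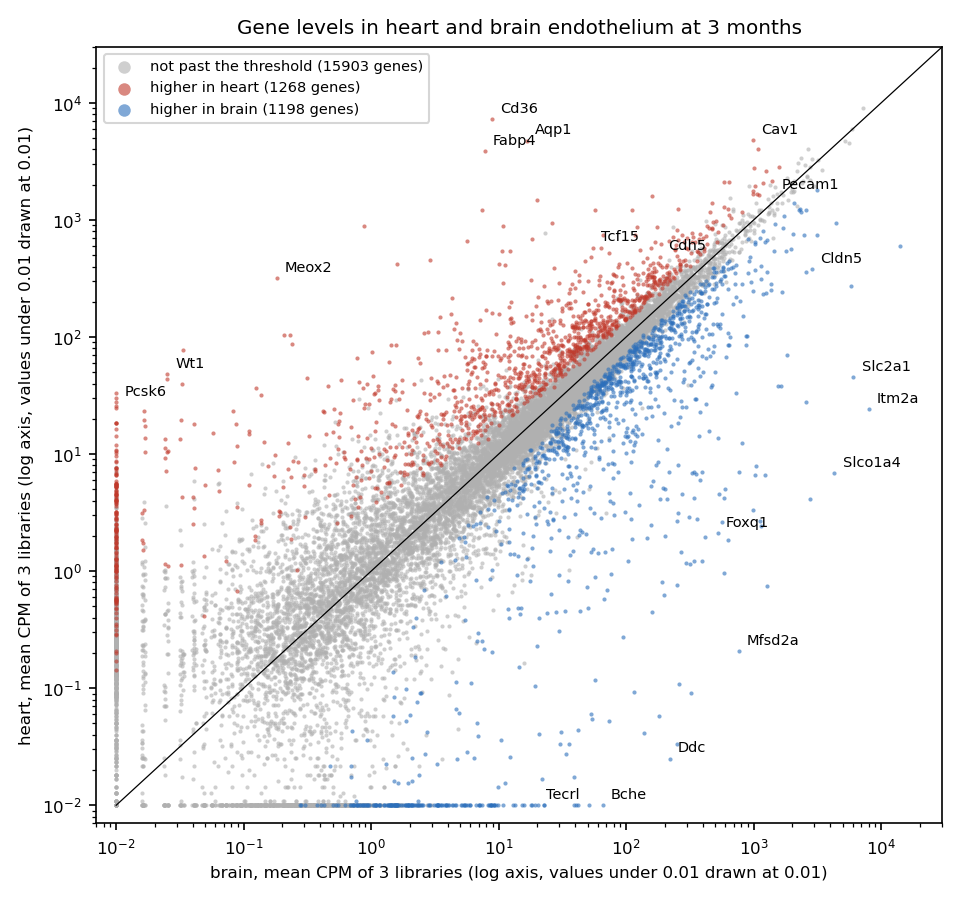
Mean CPM in brain (horizontal, log axis) and in heart (vertical, log axis) for each of 18369 genes tested, in red where higher in heart, in blue where higher in brain and in grey where the adjusted p was over 0.05. Cd36, Fabp4 and Aqp1 lie far above the line of equal level, Itm2a, Slc2a1 and Slco1a4 far below it, and Pecam1 close to it.

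The largest differences on the heart side included a protease, a receptor, muscle genes and transcription factors. Pcsk6, which encodes a convertase that cuts precursor proteins (chr7:65861734-66050386), stood at 21.2, 25.5 and 36.4 CPM in the heart libraries. It had 0 counts in brain, which makes it at least 1129.6-fold higher in heart when 3 counts over the 3 brain libraries are taken as the limit (adjusted p = 6.59e-07). This limit is used throughout, and it covers counting error only. Art4, which carries the Dombrock blood group, was uneven in heart at 31.6, 12.5 and 11.6 CPM, and brain had 0 counts of it (at least 758-fold). Hrh2, a histamine receptor, was even between heart libraries at 13.9, 14.1 and 14.7 CPM, against 0 counts (at least 582-fold). Tmeff2 and Ahsg had 0 counts in brain too and means of 12.04 ± 2.02 and 10.8 ± 8.36 CPM in heart. Cxcl9, an interferon-induced chemokine gene, was at 92.5, 60.7 and 77.3 CPM in heart and 0.0509, 0 and 0.0487 CPM in brain (11.08 ± 0.85). Themis2, a signalling adaptor gene, had 1 count in brain and 29.97 ± 12.3 CPM in heart, and Wt1, a zinc-finger factor gene of the epicardium that endothelium can also express, was at 48.4 ± 5.63 CPM with 3 counts in brain. The ratio of counts per depth was 3684 for Themis2 (95% exact counting interval 661 to 145551) and 2045.0 for Wt1 (700 to 9918). Pcsk6 was also present in kidney endothelium of the same age, at 55.6 ± 8.33 CPM, whereas Art4, Hrh2, Cxcl9 and Wt1 were at 1.51, 0.488, 3.73 and 0.422 CPM there.

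Muscle genes stood among the same set. Tnnt2, cardiac troponin T, was at 30.4, 32.8 and 36.01 CPM in heart, Mb, myoglobin, at 31.7, 18.7 and 27.3 CPM and Actc1, cardiac actin, at 37.03, 11.96 and 25.6 CPM, each with 1 count in brain. Ratios of counts per depth were 4166 (747 to 164579), 3211 (576 to 126836) and 3044 (546 to 120275). Cardiomyocyte markers passed in heart for 9 of 16 and in brain for 0 by edgeR (0 also at an unadjusted p under 0.05 and by DESeq2), with a median log2 fold change of 7.17 (6.70 with 0-count genes at their bound). The summed level of 20 listed cardiomyocyte genes nevertheless overlapped, at 512.5 to 613.4 CPM in heart and 336.3 to 608.5 CPM in brain. Atp2a2, which other cells also express, made up most of both sums, at 375 ± 11.2 CPM in heart and 419 ± 133 CPM in brain. Whether the troponin, myoglobin and actin RNA came from heart muscle cells was not tested.

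On the brain side the largest differences lay in enzymes, a long noncoding RNA and genes of membrane and matrix. Bche, butyrylcholinesterase (chr3:73635808-73708415), stood at 42.5, 89.7 and 63.8 CPM in the brain libraries and had 0 counts in heart. Fendrr, a long noncoding RNA gene that lies beside Foxf1, was at 33.3, 35.8 and 46.98 CPM against 0 counts (at least 2186-fold higher). Strand use in the counting is not stated in the sources used here, so reads of overlapping or antisense genes cannot be told apart for Fendrr. Ddc, which makes dopamine and serotonin from their precursors, reached 130.2, 265 and 265 CPM with 3 counts in heart, a ratio of 12517 (4282 to 60697). Lrrn3, a leucine-rich repeat protein of neurons and vessels, was at 106, 336 and 305 CPM in brain and 0.0334 CPM in heart (-13.17 ± 2.24). Tecrl, Unc13c, Efhc2, Foxl2, Lmntd1 and Sp5 each had 0 counts in heart and means of 13.4 to 20.3 CPM in brain. Adamtsl2, a matrix protein gene, and Atp13a5, a transport ATPase gene, were at 51.00 ± 19.6 and 42.04 ± 27.6 CPM in brain with 1 count each in heart. Kidney endothelium had 27.5 ± 1.56 CPM of Adamtsl2 but 0.0168, 0.0336 and 0 CPM of Bche, Fendrr and Atp13a5.

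The promoters of genes with some of the largest differences are shown, chosen among genes with 0 to 3 counts in the organ where they were low. Each runs 5′ to 3′ on the strand of the gene, from 250 bases before to 50 bases after its start, in RefSeq (GRCm38.p6), and capitals mark the motifs searched. The windows lie at chr7:65861886-65862185 (plus strand), chr6:136857551-136857850 (minus strand), chr8:121083061-121083360 (minus strand), chr11:11898095-11898394 (minus strand) and chr2:70474673-70474972 (plus strand).
Pcsk6: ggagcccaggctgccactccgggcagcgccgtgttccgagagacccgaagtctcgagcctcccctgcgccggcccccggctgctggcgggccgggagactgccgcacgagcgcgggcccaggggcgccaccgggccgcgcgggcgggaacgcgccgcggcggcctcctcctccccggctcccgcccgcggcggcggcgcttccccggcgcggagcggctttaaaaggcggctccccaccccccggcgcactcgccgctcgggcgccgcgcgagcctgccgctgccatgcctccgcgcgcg
Art4: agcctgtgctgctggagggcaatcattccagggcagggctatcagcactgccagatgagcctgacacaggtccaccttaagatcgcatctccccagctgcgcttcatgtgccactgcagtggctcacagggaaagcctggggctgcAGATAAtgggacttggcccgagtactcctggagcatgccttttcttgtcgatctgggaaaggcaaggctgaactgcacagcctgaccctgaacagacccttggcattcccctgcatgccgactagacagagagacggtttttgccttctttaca
Fendrr: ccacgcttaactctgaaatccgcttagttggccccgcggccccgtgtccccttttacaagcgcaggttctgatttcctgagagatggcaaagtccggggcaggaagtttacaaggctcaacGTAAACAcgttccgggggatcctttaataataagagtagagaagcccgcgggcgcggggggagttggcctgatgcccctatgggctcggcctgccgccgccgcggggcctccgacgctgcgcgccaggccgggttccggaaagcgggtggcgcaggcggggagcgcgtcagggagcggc
Ddc: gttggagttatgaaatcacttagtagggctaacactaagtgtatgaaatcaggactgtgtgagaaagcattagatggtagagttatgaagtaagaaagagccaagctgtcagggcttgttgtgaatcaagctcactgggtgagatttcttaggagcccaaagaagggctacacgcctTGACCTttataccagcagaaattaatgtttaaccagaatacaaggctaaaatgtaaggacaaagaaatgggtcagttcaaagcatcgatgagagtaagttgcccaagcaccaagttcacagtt
Sp5: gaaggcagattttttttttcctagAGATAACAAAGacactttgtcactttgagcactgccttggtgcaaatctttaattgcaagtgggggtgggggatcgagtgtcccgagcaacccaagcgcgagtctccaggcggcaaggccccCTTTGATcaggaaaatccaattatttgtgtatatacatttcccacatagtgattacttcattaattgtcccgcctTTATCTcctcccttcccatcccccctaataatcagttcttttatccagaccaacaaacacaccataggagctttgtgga
The Pcsk6 window was 81.7% G and C with 52 CpG pairs and held none of the motifs. The windows of Hrh2 and Bche, also among the largest differences, held none of the motifs either and are not shown. The Art4 window, 56.3% G and C, held the GATA letters AGATAA 104 bases before the start. The Fendrr window held the forkhead letters TGTTTAC on the opposite strand 129 bases before the start, and the Ddc window, 41.3% G and C with 2 CpG pairs, held AGGTCA, part of a nuclear receptor site, on the opposite strand 73 bases before the start. The Sp5 window was chosen after its matches were seen: it held the TCF/LEF letters CTTTGAT 104 bases before the start, CTTTGTT on the opposite strand 222 bases before it, and AGATAA on both strands, 1 of which overlaps CTTTGTT by a few bases. These are letter matches and not sites. Among promoters of genes higher in brain, 2.97% of 908 held CTTTGAT on either strand, against 1.75% of 914 promoters of genes higher in heart, 2.46% of 12344 promoters of genes tested and 3.29% of all 19113 promoters. AGATAA stood in 7.93% of brain, 7.0% of heart, 6.86% of tested and 9.77% of all promoters, and TGTTTAC in 2.31%, 3.17%, 2.63% and 3.01%. The ETS letters CCGGAAG, read by endothelial ETS factors among others, were in 11.01% of brain and 8.64% of heart promoters and in 16.2% of promoters of genes tested.

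Among abundant genes the contrast was as wide. In heart, Cd36, the fatty acid translocase, stood at 7900.5, 5941 and 7924 CPM against 5.17, 2.97 and 18.5 CPM in brain (9.67 ± 0.74; adjusted p = 3.76e-07). Aqp1, a water channel, was at 4747 ± 1379.8 CPM against 16.6 ± 12.7 CPM, and kidney endothelium also held 3519 ± 843 CPM of it. Col4a1, a chain of basement membrane collagen, was at 5976, 3321 and 2889 CPM in heart and 1255, 863 and 1109 CPM in brain (1.92 ± 0.31). In brain, Bsg, basigin, a partner protein of lactate carriers, reached 14008, 15318 and 12588 CPM against 599.9, 614 and 584 CPM in heart (-4.54 ± 0.13; adjusted p = 2.93e-11). Itm2a, a type II membrane protein, was at 7993 ± 1829 CPM in brain and 24.1 ± 19.5 CPM in heart, a difference of -8.37 ± 0.81. Pltp, which moves phospholipid between lipoproteins, and Tsc22d1 were at 5807 ± 671 and 4451 ± 261 CPM in brain and 270.3 ± 26.1 and 941 ± 65.8 CPM in heart. Heart and brain libraries did not overlap for any of these 7 genes, which were picked among called genes. Overlap was also absent for 2374 of all 2466 called genes and for 26.4% of all genes tested.

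Carriers of amino acids and sugar were more often higher in brain. Of 18 listed and tested, 10 were higher in brain and 2 in heart, with a median log2 fold change of -2.48. Slc2a1, the GLUT1 glucose carrier of the barrier, was at 8665, 4925 and 4532 CPM in brain and 34.1, 55.6 and 47.4 CPM in heart. Slc7a5 and Slc3a2, the light and the heavy chain of the large neutral amino acid exchanger, were at 2554 ± 386 and 1373 ± 101 CPM in brain and 28.1 ± 5.52 and 285 ± 85.8 CPM in heart, so the light chain differed by -6.51 ± 0.31 and the heavy chain, which other exchangers share, by -2.27 ± 0.29. Slc38a5 and Slc38a3, glutamine carriers, were 344-fold and 118-fold higher in brain. Slc6a20a, a carrier of proline, was at 19.5, 22.4 and 24.1 CPM in brain with a mean of 0.0167 CPM in heart. Slc43a3, a purine nucleobase carrier, and Slc1a5, a neutral amino acid exchanger, went the other way, at 482 ± 158 and 126 ± 21.5 CPM in heart and 53.2 ± 17.4 and 37.5 ± 2.16 CPM in brain. The general amino acid carrier Slc38a2 was at 479 ± 130.0 CPM in heart and 557 ± 105 CPM in brain and did not pass. Per kilobase of exon, Slc2a1 was at 1723 RPKM in brain, and Slc2a3 and Slc2a4, the neuronal and the insulin-sensitive glucose carriers, reached at most 6.73 RPKM, that of Slc2a4 in heart.

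**Figure D2:**
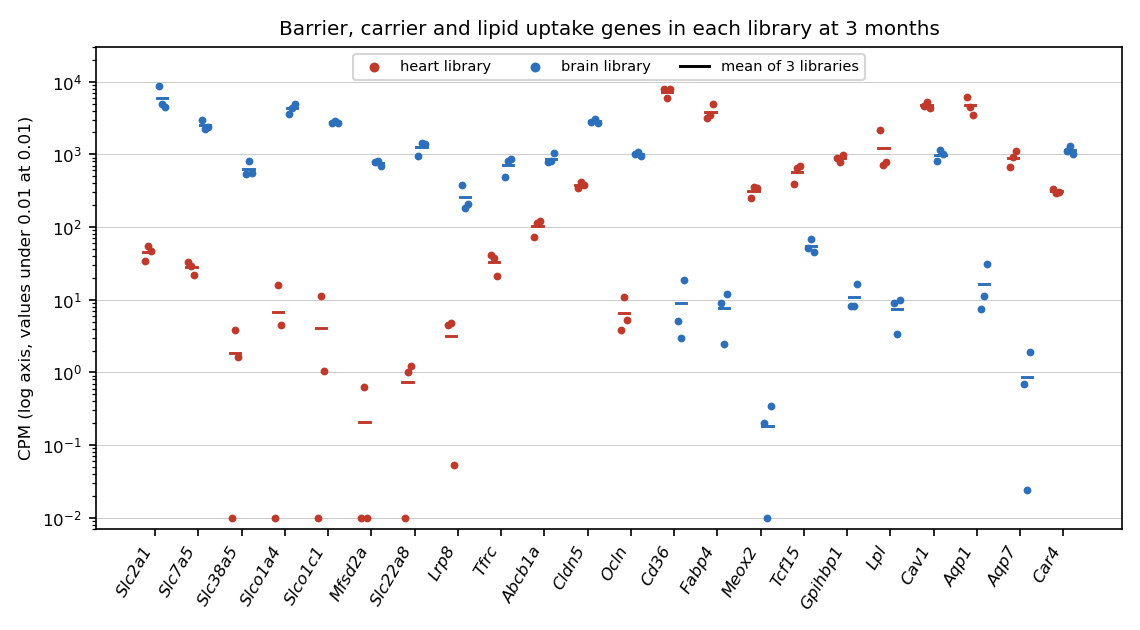
CPM (log axis) of barrier, carrier and lipid uptake genes in each of 3 heart libraries (red points) and 3 brain libraries (blue points), with bars at the means. From Slc2a1 to Ocln, and for Car4, the brain points lie above all heart points, and from Cd36 to Aqp7 the heart points lie above all brain points.

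Carriers of hormones, vitamins, metals and lipids showed the same direction: 20 of 30 were higher in brain and 3 in heart, with a median of -2.98. Lipid and organic anion carriers led. Mfsd2a, which carries lysolipids with omega-3 fatty acids, had counts in 1 of 3 heart libraries (0, 0.626 and 0 CPM) and stood at 797, 801 and 687 CPM in brain. Slco1a4, which carries bile salts and other organic anions, was at 3609, 4388 and 4881 CPM in brain and 0, 15.97 and 4.52 CPM in heart. Slco1c1, a thyroid hormone carrier, was at 2735, 2902 and 2726 CPM in brain and 0, 11.4 and 1.06 CPM in heart. Both had 0 CPM in the first heart library and their highest heart value in the second. Slc22a8, an organic anion exchanger, was at 1268 ± 269.9 CPM in brain and 0.745 ± 0.651 CPM in heart.

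Metal, vitamin and monocarboxylate carriers followed. Slc40a1, ferroportin, which exports iron, was at 1137 ± 303 CPM in brain and 2.44 ± 1.98 CPM in heart, and Slc30a10, a manganese exporter, at 5.31 ± 3.96 CPM with 0 counts in heart. Slc39a8 and Slc39a10, importers of zinc and other metals, were 249-fold and 7.47-fold higher in brain. Slc19a3, the thiamine carrier, was at 305, 317 and 323 CPM in brain and 0, 0.325 and 3.12 CPM in heart. Slc16a1, the MCT1 carrier of lactate and ketones, was 42.7-fold higher in brain. Slco3a1, another organic anion carrier, was higher in heart, at 108 ± 11.1 CPM against 24.6 ± 3.35 CPM. The other 2 heart genes, Slc39a14 and Slc12a2, lost their calls without several libraries (adjusted p up to 0.122 without brain library 1 and up to 0.103 without heart library 1). Slc9a3r2, a scaffold of ion exchangers, was the most abundant member that did not pass, at 2159 ± 262 and 2453 ± 435 CPM. Over all 326 tested genes with Slc or Slco names, 58 were higher in brain (17.8%) and 21 in heart (6.44%), with a median of -0.01. The shares over all genes tested were 6.52% and 6.90%.

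Of 14 ATP-driven pumps tested, 4 were higher in brain and 2 in heart (median -0.06, from -0.20 without heart library 1 to 0.18 without brain library 3). Abcb1a, the drug pump P-glycoprotein, stood at 779.6, 803 and 1043 CPM in brain and 71.9, 115 and 121 CPM in heart, and Abcg2, another drug pump, at 1361 ± 63.3 and 252 ± 4.15 CPM. Abcb1b, the second mouse P-glycoprotein gene, went the other way, at 31.3, 47.8 and 56.6 CPM in heart and 11.9, 2.496 and 5.77 CPM in brain (2.75 ± 0.50). Abcb4, a phospholipid pump of the same subfamily, was at 11.6, 11.3 and 17.4 CPM in heart and 0.0243 ± 0.0422 CPM in brain. Abcc4 was 4.48-fold higher in brain. The brain call of Abcc6 was lost without heart library 1 (adjusted p = 0.0560).

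Genes listed for receptor-mediated transcytosis, which include the carriers Slc40a1 and Flvcr2 beside receptors, were brain genes without exception among those called. By edgeR 13 of 18 were higher in brain and 0 in heart (0 also at an unadjusted p under 0.05 and by DESeq2), with a median of -2.19. The count was 13 in each of the 6 fits without 1 library. Tfrc, the transferrin receptor, was at 489, 804 and 874 CPM in brain and 40.6, 38.05 and 21.2 CPM in heart (-4.44 ± 0.45; adjusted p = 6.06e-06). Lrp8, a receptor of selenoprotein P and reelin, was at 257 ± 109 CPM against 3.15 ± 2.68 CPM. Lepr, the leptin receptor, was at 38.8, 61.6 and 59.8 CPM in brain and 0.0814, 0.02503 and 0.0755 CPM in heart. Stra6, which takes up retinol, and Flvcr2, a choline carrier of brain vessels, were 47.9-fold and 106-fold higher in brain. The insulin receptor Insr and its relative Igf1r stood at 60.7 ± 9.72 and 113 ± 33.7 CPM in brain and 9.44 ± 3.15 and 10.6 ± 4.91 CPM in heart. Fcgrt, the receptor that recycles antibodies, differed less, -1.71 ± 0.20. Lrp1 and Ager, discussed as carriers of amyloid peptide, were at 18.3 and 1.26 CPM in heart and 12.9 and 1.53 CPM in brain and did not pass.

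Junction genes did not move as a block: 8 of 25 tested were higher in brain and 8 in heart (median -0.44, -0.66 without heart library 3, and -0.40 with 0-count genes at their bound), and the heart count was 5 without brain library 3 or with the lane term. Cldn5, the main claudin of endothelium, was at 2791, 3068 and 2734 CPM in brain and 340.1, 415 and 383 CPM in heart. Ocln, occludin, was at 1002, 1089 and 957 CPM in brain and 3.83, 10.8 and 5.21 CPM in heart. Lsr and Marveld2, proteins of the corners where several cells meet, were 62.8-fold and 6.48-fold higher in brain, and the scaffolds Tjp1 and Cgnl1 2.503-fold and 3.77-fold. Cdh5, VE-cadherin, was at 491, 465 and 502 CPM in heart and 187, 188 and 181 CPM in brain (1.39 ± 0.12), and Cdh13, T-cadherin, at 522 ± 81.4 and 73.5 ± 20.3 CPM. Jam3 and Afdn, an adhesion molecule and the afadin scaffold, were 5.57-fold and 3.35-fold higher in heart. Cldn15, a claudin that forms cation pores, was higher in heart at 15.5 RPKM, beside 268 RPKM for Cldn5 in the same organ and 2023 RPKM in brain. Cldn1, Cldn3 and Cldn12 did not pass, at 0 to 5.21 RPKM. Esam, an adhesion molecule of endothelial junctions, did not pass either, at 1469 CPM in heart and 1857 CPM in brain.

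Enzymes of the brain vessel wall were higher in brain for 15 of 29 genes and higher in heart for 3 (median -1.83), and the heart count was 5 without brain library 1. Elovl7, which lengthens fatty acids, was at 261 ± 43.7 CPM in brain and 0.109 ± 0.103 CPM in heart. Maoa and Maob, the monoamine oxidases, were 12.2-fold and 20.4-fold higher in brain, and Dpp4 and Enpp2, a peptidase and the enzyme of lysophosphatidic acid synthesis, 12.7-fold and 12.8-fold. Fmo1, a flavin monooxygenase, and Ace, angiotensin-converting enzyme, were 4.21-fold and 2.58-fold higher in heart. Alpl, alkaline phosphatase, which is used to stain brain capillaries, did not pass, at 455 ± 49.1 CPM in heart and 680.1 ± 83.9 CPM in brain. Cyp1a1, an enzyme induced through the aryl hydrocarbon receptor, was at 2205, 18.9 and 86.1 CPM in heart and 69.2, 0 and 0.07302 CPM in brain and did not pass (adjusted p = 0.174). Its first heart library stood far above the others. Carbonic anhydrases split: Car4, Car2 and Car14 were at 582, 89.7 and 26.6 RPKM in brain and 158, 2.88 and 0.577 RPKM in heart, while Car8 and Car7 were at 79.9 and 36.98 RPKM in heart and 4.64 and 3.58 RPKM in brain.

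Genes called in brain lay among Wnt receptors, co-receptors, mediators and targets. Of 15 receptors and co-receptors 5 were higher in brain and 0 in heart by edgeR (1 in heart at an unadjusted p under 0.05 and 2 by DESeq2; median -0.07, from -0.27 without heart library 3 to -0.01 without brain library 2). The brain count was 3 without heart library 2 or brain library 2, and 1 gene was called in heart without brain library 2. Reck, which with Adgra2 receives Wnt7 ligands on brain endothelium, was at 307, 257 and 321 CPM in brain and 19.2, 40.4 and 16.4 CPM in heart. Adgra2 was at 169, 181 and 159 CPM in brain and 29.6, 31.4 and 27.3 CPM in heart. Fzd6, a frizzled receptor, was at 542 ± 40.8 CPM in brain and 129.6 ± 24.8 CPM in heart. Fzd4 and Tspan12, the receptor and its partner for the ligand norrin, did not pass, at 224 ± 83.9 and 292 ± 33.1 CPM in heart and 176 ± 34.7 and 216 ± 55.1 CPM in brain. Ctnnb1, beta-catenin itself, was at 1109 and 1435 CPM and did not pass either.

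Downstream, 10 of 24 mediators and targets were higher in brain and 3 in heart (median -0.48), and the median was -1.39 without heart library 1, -0.87 without heart library 2 and -0.28 without brain library 1. With the lane term 10 were higher in brain and 1 in heart. Sp5, whose promoter is shown above, had 0 counts in heart and 10.2, 20.5 and 9.44 CPM in the brain libraries. Notum, which inactivates Wnt proteins, was at 121, 150.4 and 145 CPM in brain and 0.0417 ± 0.0723 CPM in heart. Apcdd1, Nkd1, Axin2, Znrf3 and Tnfrsf19, feedback inhibitors or targets, were 130.2-fold, 28.3-fold, 40.8-fold, 8.89-fold and 132-fold higher in brain. The DNA-binding partners of beta-catenin split by gene. Lef1 was at 524, 597 and 642 CPM in brain and 0.0543, 2.83 and 0.0216 CPM in heart, and its fold change of -9.35 was -14.08 without heart library 2, the highest heart library. Tcf7 was at 273 ± 19.4 CPM in brain and 4.52 ± 3.95 CPM in heart, whereas Tcf7l1, mostly a repressor, was higher in heart at 81.9 ± 12.8 against 41.3 ± 9.602 CPM and Tcf7l2 did not pass (0.19 ± 0.17). Ccnd1, cyclin D1, also listed as a target, was higher in heart, at 112, 93.5 and 63.2 CPM against 36.5, 15.7 and 15.8 CPM. Of 7 promoters of brain-high members in the RefSeq table, 1, that of Sp5, held CTTTGAT or CTTTGTT.

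Transcription factors listed for brain endothelium were higher in brain for 14 of 18 and higher in heart for 0 by edgeR (0 also at an unadjusted p under 0.05 and by DESeq2; median -3.63). Foxf2, a forkhead factor whose loss opens the barrier, was at 293, 364 and 312 CPM in brain and 0, 0.275 and 0 CPM in heart. Foxq1 was at 395, 597 and 576 CPM in brain and 0, 6.36 and 0.0216 CPM in heart. Foxl2 had 0 counts in heart and 18.7, 15.5 and 19.4 CPM in brain. Foxf1 and Foxc1 were 27.5-fold and 5.595-fold higher in brain, while Foxc2 did not pass (0.88 ± 0.60). Zic2, a zinc finger factor, was at 5.48 ± 3.35 CPM in brain with 0 counts in heart. Among 29 tested Fox genes 10 were higher in brain (34.5%) and 3 in heart (10.3%), beside 6.52% and 6.90% of all genes tested. Tbx1, a T-box factor, was uneven in heart, at 0, 1.88 and 0 CPM, and stood at 197, 191 and 209 CPM in brain. Without heart library 2 the fold change of Tbx1 went from -8.45 to -16.21 and that of Foxq1 from -7.99 to -14.83, and both calls held. The remaining heart libraries were at 0 CPM for Tbx1 and at or near 0 for Foxq1, where a fitted value depends on the prior count and is no bound. Sox17 was 2.05-fold higher in brain, and Sox18 did not pass (-0.16 ± 0.20).

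Factors listed for heart endothelium were higher in heart for 9 of 19 and in brain for 2 (median 0.81, 0.52 without brain library 1 and 2.68 without brain library 3), and the brain count was 1 without heart library 2, brain library 1 or brain library 3. Meox2, a homeobox factor that with Tcf15 activates fatty acid uptake in heart capillaries, was at 253, 355 and 344 CPM in heart and 0.204, 0 and 0.341 CPM in brain. Tcf15 was at 394, 650.3 and 693 CPM in heart and 51.2, 67.5 and 45.4 CPM in brain, and Meox1, the paralog of Meox2, at 135 ± 49.5 and 21.4 ± 2.99 CPM. Pparg, a nuclear receptor that controls lipid storage genes, was at 248, 196 and 199 CPM in heart and 5.14, 5.51 and 2.24 CPM in brain (5.64 ± 0.44). Gata4, Gata6 and Gata3 were at 5.96, 5.09 and 2.13 RPKM in heart and 0.00425, 0.397 and 0.0668 RPKM in brain, while Gata2, the most abundant GATA gene in both organs, was at 75.6 RPKM in heart and 134 RPKM in brain. Kidney endothelium held 10.5 CPM of Meox2, 46.5 CPM of Tcf15 and 52.2 CPM of Pparg. Of the other heart calls, that of Tbx20 was lost in 5 of 6 fits without 1 library (adjusted p up to 0.0762, without brain library 2) and that of Hand2 without brain library 2 (0.0514).

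Hox genes, which mark position along the body axis, were higher in heart for 8 of 26 and in brain for 0 by edgeR (0 also at an unadjusted p under 0.05 and by DESeq2; median 2.75, and 2.17 with 0-count genes at their bound). Their levels were low: summed over 28 genes they came to 20.3, 32.5 and 33.6 CPM in heart and 0.993, 0.357 and 7.30 CPM in brain. Hoxa3, Hoxa4, Hoxb2 and Hoxb3 had 0 counts in brain and means of 1.57 ± 1.45, 2.25 ± 1.404, 2.195 ± 1.44 and 0.765 ± 0.642 CPM in heart. Hoxb5 was at 3.09, 5.46 and 2.01 CPM in heart and 0, 0.0475 and 0.219 CPM in brain. The heart count was 5 without brain library 2, and the median ranged from 1.76 without heart library 3 to 5.28 without brain library 3. Of factors shared by endothelium at large, 14 of 20 did not pass, among them Erg (0.03 ± 0.21), Fli1 (-0.02 ± 0.18), Klf2 (-0.13 ± 0.35) and Ets1 (0.40 ± 0.17). Bcl6b and Ets2 were higher in heart, at 296 ± 38.02 and 768 ± 62.9 CPM against 77.1 ± 4.203 and 328 ± 107 CPM, and Lmo2 and Epas1 higher in brain, 4.03-fold and 1.604-fold.

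**Figure D3:**
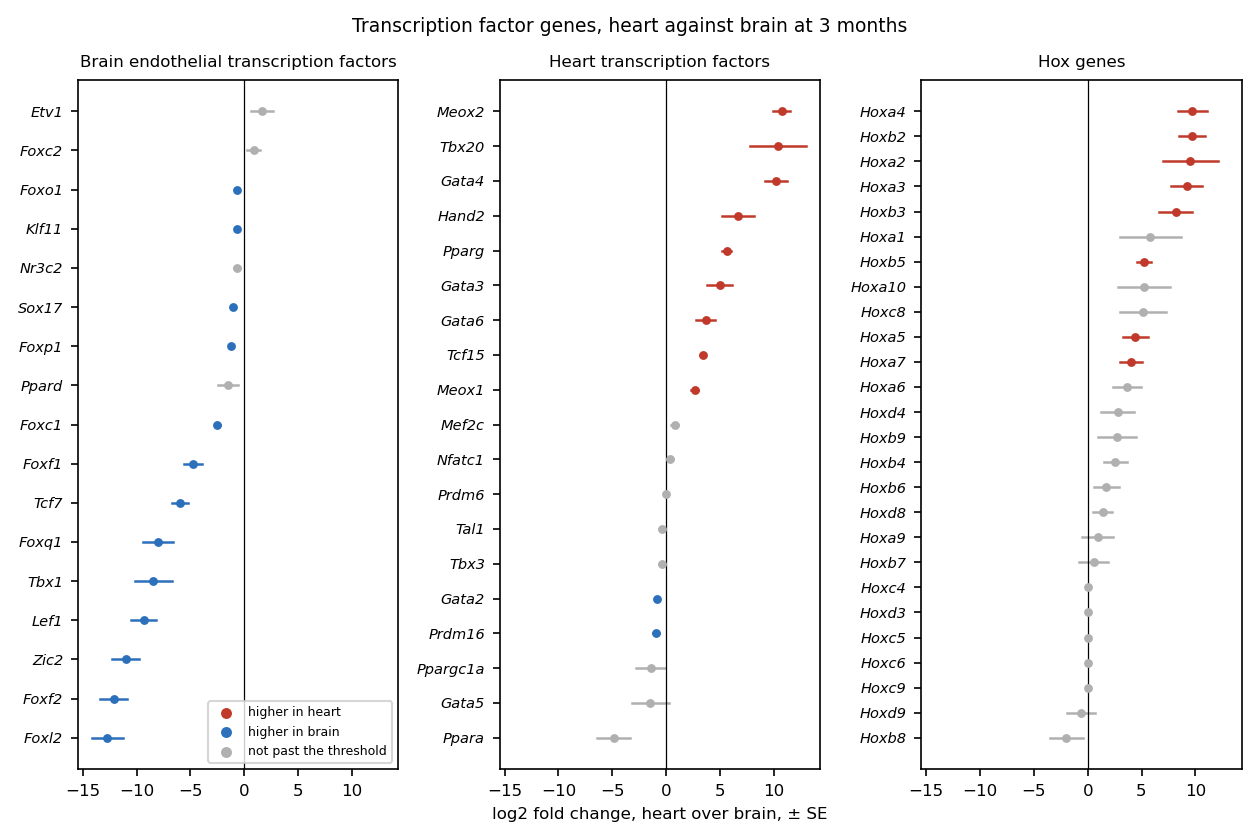
Log2 fold change, heart over brain (horizontal, with SE bars), of tested genes of the brain endothelial, heart and Hox factor lists, in red where higher in heart, in blue where higher in brain and in grey where the threshold was not passed. The called brain factors drawn lie left of 0, 9 of 11 called heart factors and 8 Hox genes lie right of it, and genes with 0 counts in all 6 libraries sit at 0.

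Genes of fatty acid uptake were called in both directions. Of 21 genes 6 were higher in heart and 4 in brain (median -0.14, with 0.18 without heart library 1, 0.04 without heart library 2, -0.05 without brain library 1 and 0.12 without brain library 3), and the brain count was 2 without heart library 1 or 2 or with the lane term. Lpl, lipoprotein lipase, was at 2168, 703 and 783 CPM in heart and 8.94, 3.42 and 9.81 CPM in brain. Gpihbp1, which holds the lipase on the capillary wall, was at 901, 784 and 989 CPM in heart and 8.12, 8.13 and 16.3 CPM in brain. Fabp4, a fatty acid binding protein of the cytoplasm, was at 3178, 3530.4 and 4870.0 CPM in heart and 9.04, 2.45 and 11.8 CPM in brain, and Fabp5 at 103 ± 6.95 and 0.231 ± 0.2200 CPM. Per kilobase, Fabp4 was at 859.8 RPKM and Fabp5 at 28.9 RPKM in heart. On the brain side was Acsl3, an acyl-CoA synthetase, at 153 ± 40.7 CPM in brain against 36.5 ± 8.88 CPM in heart. Vldlr, a lipoprotein receptor, was also called in brain, at 1.498 ± 1.397 CPM against 0.0162 ± 0.0143 CPM (-6.23 ± 1.87), but lost its call in 5 of 6 fits without 1 library (adjusted p up to 0.120, without heart library 2). Slc27a1, a fatty acid transport protein, was called in brain at 35.7 ± 16.8 CPM against 7.91 ± 5.26 CPM (-2.17 ± 0.59) and lost its call without heart library 1 or 2 or brain library 3 (adjusted p = 0.0616, 0.0606 and 0.0962). Scarb1 and Angptl4, a lipoprotein receptor and an inhibitor of the lipase, did not pass (-0.27 ± 0.14 and -0.14 ± 0.32).

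Of 31 tested genes that store or burn fatty acids 7 were higher in brain and 3 in heart (median -0.45), and the brain count was 4 without brain library 2. Mgll, which releases fatty acids from monoglycerides, was at 1294, 1198 and 1137 CPM in heart and 108, 104 and 120.2 CPM in brain (3.45 ± 0.19). Ucp2, a mitochondrial carrier, and Decr1, of beta-oxidation, were 1.92-fold and 1.88-fold higher in brain. Cpt1a, the rate-limiting step of mitochondrial uptake, was at 165 ± 46.5 CPM in heart and 313 ± 58.7 CPM in brain, and its call was lost without heart library 2, heart library 3 or brain library 1 (adjusted p = 0.0618, 0.0573 and 0.0548). Pnpla2 and Plin2, of lipid droplets, did not pass (-0.12 ± 0.23 and 0.29 ± 0.17). Glycolysis genes were called in brain for 6 of 20 and in heart for 1 (median 0.02, from -0.15 without heart library 3 to 0.08 without heart library 2). The brain count was 3 without any of the 3 heart libraries or brain library 2, and the heart count 2 without heart library 3. With the lane term 3 were called in brain and 0 in heart. Pkm, pyruvate kinase, held in all fits, at 386 ± 38.1 CPM in heart and 579 ± 20.5 CPM in brain, and Aldoa and Ldha did not pass (0.33 ± 0.13 and 0.03 ± 0.17). Gapdh and Pgk1, which have many processed copies in the genome, were at 12.3 and 6.91 CPM in heart and 12.2 and 6.64 CPM in brain, and reads that matched several places were kept apart from genes in the counting of the brain files (19.9% to 20.8% of reads), so these levels are uncertain.

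Of 14 tested genes of caveolae and fenestrae 8 were higher in heart and 2 in brain (median 0.75), and the brain count was 1 without heart library 3, brain library 1 or brain library 3. Cav1, the main coat protein, was at 4680.2, 5265 and 4384 CPM in heart and 813, 1135 and 1022 CPM in brain, and Cav2 at 1773 ± 56.6 and 994 ± 208 CPM. The cavins Cavin1 and Cavin2 were 2.202-fold and 2.78-fold higher in heart and Ehd2, of the caveolar neck, 2.65-fold. Plvap, the diaphragm protein of fenestrae and caveolae, which is often named as absent from mature brain capillaries, was higher in brain, at 269, 496 and 684 CPM against 153, 156 and 82.5 CPM (-1.89 ± 0.28; adjusted p = 2.39e-04). The sort does not separate types of vessel, and which brain vessels held the Plvap RNA was not tested. Water channels beside these vesicles differed by gene: Aqp1 and Aqp7 were at 1807 and 314 RPKM in heart and 6.33 and 0.3105 RPKM in brain, and Aqp11 at 0.4902 RPKM in heart and 11.3 RPKM in brain.

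Receptors of growth factors moved in both directions. In the VEGF and angiopoietin list 8 of 23 were higher in heart and 4 in brain (median 0.31, with 0.48 without heart library 2, 0.20 without brain library 1, 0.17 without brain library 2 and 0.18 without brain library 3). Kdr, the main signalling receptor of VEGF, was at 3235, 2019 and 2579 CPM in heart and 1035, 1053 and 1643 CPM in brain, while Flt1, a receptor that mostly traps the ligand, was at 928, 619.8 and 689 CPM in heart and 3252, 2618 and 3558 CPM in brain. Aplnr, the apelin receptor, was at 1141, 926 and 758 CPM in heart and 20.2, 40.3 and 17.6 CPM in brain, and its ligand Apln at 169 ± 65.9 and 8.01 ± 2.51 CPM. The co-receptors Nrp1 and Nrp2 were 3.59-fold and 7.86-fold higher in heart, and the ligands Pgf and Vegfa 5.698-fold and 2.72-fold. Tek, the angiopoietin receptor, was higher in brain at 1236 ± 265 CPM against 645 ± 0.844 CPM. Angpt2 and Flt4 did not pass (0.31 ± 0.39 and -0.10 ± 0.18).

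In the TGF-beta and BMP list 8 of 33 were higher in brain and 5 in heart (median -0.12, from -0.15 without heart library 1 to 0.07 without brain library 3). Among the receptors, Tgfbr2 was at 613, 632 and 804 CPM in brain and 196, 166 and 213 CPM in heart. Acvrl1, the ALK1 receptor, and Bmpr2 were 2.85-fold and 2.25-fold higher in brain. The brain calls of Acvr1 and Tgfbr3 were lost in 5 and 4 of 6 fits without 1 library (adjusted p up to 0.150 and 0.149), and Eng, endoglin, did not pass (0.09 ± 0.15). Ligands split, with Bmp6 and Bmp4 at 219.7 ± 23.97 and 36.4 ± 8.61 CPM in heart and 20.4 ± 6.82 and 5.12 ± 1.91 CPM in brain, and Tgfb2 6.22-fold higher in brain. The intracellular Smad3 was higher in brain (-1.86 ± 0.35) and Smad1 higher in heart (0.99 ± 0.18). Id1 and Id3, targets of the pathway, did not pass (-0.33 ± 0.23 and -0.13 ± 0.15). Among Notch genes 4 of 19 were called in heart and 1 in brain (median 0.11, from 0.02 without heart library 3 to 0.28 without brain library 3), the heart count was 2 without brain library 1 or 2, and the brain count was 2 without heart library 1 and 0 without brain library 2. The ligands Dll4 and Dll1 held, 1.58-fold and 2.92-fold higher in heart, and the receptors Notch1 and Notch4 did not pass (0.16 ± 0.31 and 0.53 ± 0.27).

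Guidance genes were higher in heart for 7 of 24 and in brain for 4 (median 0.41, with 0.67 without heart library 1 and 0.24 without heart library 3). Sema3c, a secreted semaphorin, was at 886, 949 and 1104 CPM in brain and 2.55, 7.36 and 0.0647 CPM in heart (-8.24 ± 1.39), and Sema3f at 275, 173 and 134 CPM in heart and 33.6, 40.01 and 35.6 CPM in brain. Plxnd1, the plexin of endothelium, was 3.98-fold higher in heart. Ephb1 was at 36.4 ± 12.3 CPM in heart and 0.865 ± 0.744 CPM in brain, and the arterial ligand Efnb2 and its venous receptor Ephb4 were both higher in heart, 2.103-fold and 2.27-fold. Robo4 and Sema3g did not pass (-0.08 ± 0.17 and -0.01 ± 0.22).

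Genes that mark arteries and veins were called in both directions. Of 22 arterial genes 7 were higher in heart and 4 in brain (median 0.14, from 0.02 without heart library 3 or brain library 3 to 0.21 without brain library 1), and of 18 venous genes 2 and 6 (median -0.84, with -0.32 without brain library 1 and -0.45 without heart library 3). Summed arterial levels overlapped, at 6064 to 6361 CPM in heart and 6140 to 6963 CPM in brain. Summed venous levels did not overlap and were higher in brain, at 5049 to 5699 CPM against 2540 to 4257 CPM in heart. Slc38a5, given above among the carriers, is also a member of the venous list, and its part in the sum was not tested. Gja5, the arterial connexin 40, was at 171, 139 and 146 CPM in heart and 32.1, 12.4 and 4.62 CPM in brain, and the matrix genes Fbln2 and Fbln5 were 4.94-fold and 3.197-fold higher in heart. Gkn3, a gastrokine of brain arteries, was at 105, 160.4 and 109 CPM in brain and 0.895, 5.13 and 4.93 CPM in heart. Car8 and Ephb4, of the venous list, were higher in heart, and Ctsc, a cathepsin, was 16.6-fold higher in brain. Nr2f2, the factor that sets venous identity, and Hey1, a Notch target of arteries, did not pass (0.19 ± 0.18 and -0.07 ± 0.30). Lcn2, an acute-phase gene, was at 184, 3.54 and 11.8 CPM in brain and 1.74, 0 and 0 CPM in heart, and its call was lost without brain library 1 (adjusted p = 0.152) or heart library 2 (0.0549). Per kilobase, the connexins Gja1, Gja4 and Gja5 were at 55.5, 66.6 and 26.4 RPKM in heart and 23.7, 40.1 and 2.85 RPKM in brain, and Gjc1 was at 17.7 and 37.00 RPKM. The call of Gja4 was lost without heart library 2 (0.102) or brain library 1 (0.0662).

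Genes of vascular tone were more often heart genes, with 12 of 36 higher in heart and 4 in brain (median 0.42). Bdkrb2, a bradykinin receptor, had 0 counts in brain and 5.48, 6.96 and 4.22 CPM in heart. Adora2a, Ptger4 and Npr1, receptors for adenosine, prostaglandin E and natriuretic peptide, were 10.6-fold, 12.5-fold and 2.54-fold higher in heart. Ednrb, an endothelin receptor, was at 324, 304 and 267 CPM in heart and 34.4, 40.9 and 52.7 CPM in brain. The ligand Edn1, endothelin 1, was on the brain side, at 593, 362 and 413 CPM against 79.02, 69.6 and 57.9 CPM, as were Nostrin, which moves nitric oxide synthase off the membrane, and Ptgs2, cyclooxygenase 2, 4.37-fold and 8.86-fold higher. Ptgs1, cyclooxygenase 1, was 4.18-fold higher in heart. Ddah1 and Ddah2, which clear an inhibitor of nitric oxide synthase, moved in opposite directions (-2.94 ± 0.21 and 0.96 ± 0.20). Nos3, the endothelial nitric oxide synthase, and S1pr1 did not pass (-0.31 ± 0.15 and -0.12 ± 0.34).

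Of 36 genes of an MHC and interferon list, 15 were called in heart (median 0.48), and 12 to 15 without 1 library. Summed levels of the list overlapped, at 13782 to 16344 CPM in heart and 11972 to 14387 CPM in brain. Called in brain were 2, and that count fell to 0 without any heart library or brain library 1 and to 1 without brain library 2. H2-D1, a class I gene, was at 2839, 3230.1 and 2479 CPM in heart and 1612, 1811 and 1313 CPM in brain, and H2-K1 at 1103 ± 170.4 and 645 ± 25.2 CPM. H2-Q6 and H2-Q7, near-identical neighbours between which reads are uncertain, were 7.93-fold and 7.75-fold higher in heart. The class II genes H2-Aa, H2-Ab1, H2-Eb1 and the invariant chain Cd74 were at 17.5 ± 11.9, 26.1 ± 6.399, 10.8 ± 4.91 and 91.1 ± 39.5 CPM in heart and 1.55 ± 1.32, 4.52 ± 0.146, 2.100 ± 0.918 and 11.9 ± 10.8 CPM in brain. Leukocyte markers, whose cells carry class II, summed to 51.4 to 63.9 CPM in heart and 44.3 to 51.8 CPM in brain. Iigp1 and Ifit2 were 3.89-fold and 2.85-fold higher in heart, whereas Isg15, Ifit3 and Irf7 did not pass (-0.27 ± 0.23, -0.15 ± 0.22 and -0.33 ± 0.14).

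Adhesion and chemokine genes were called in heart for 6 of 24 and in brain for 3 (median 0.31, and 0.14 without heart library 1), and the heart count was 4 without brain library 3. Cxcl16 and Mcam were 10.1-fold and 3.48-fold higher in heart and Cx3cl1, fractalkine, 2.23-fold higher in brain. Icam1 and Vcam1, the adhesion molecules of inflamed vessels, did not pass (-0.07 ± 0.28 and -0.87 ± 0.39). Alcam, an adhesion molecule, was at 0, 0.02503 and 1.26 CPM in heart and 12.9, 12.7 and 18.7 CPM in brain, and its fold change of -5.02 was -9.88 without heart library 3. Ackr1, a chemokine receptor of venules, was at 2.09, 0.0751 and 0.6796 CPM in heart and 176, 27.9 and 23.3 CPM in brain. The call of Ackr1 was lost without brain library 1 or heart library 3 (adjusted p = 0.0747 and 0.0536). In haemostasis 4 of 20 were higher in heart and 4 in brain (median 0.05, from -0.12 without heart library 1 to 0.08 without heart library 3), and the brain count was 2 without heart library 3 or brain library 2 or with the lane term. F2r, the thrombin receptor, was at 320.3, 306 and 247 CPM in heart and 25.4, 25.8 and 38.8 CPM in brain. Plat, the tissue plasminogen activator, was at 363, 411 and 310.3 CPM in heart and 1911, 886 and 999 CPM in brain. Vwf and Thbd did not pass (-0.84 ± 0.30 and 0.11 ± 0.28).

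Basement membrane genes were higher in heart for 16 of 37 and in brain for 4 (median 0.75, and 0.41 without heart library 1). Col4a2 followed Col4a1 at 2869, 1891 and 1559.9 CPM in heart and 704, 562 and 640.1 CPM in brain. Lamb1, a laminin chain, was at 367, 311 and 197 CPM in heart and 6.03, 6.75 and 19.4 CPM in brain (4.76 ± 0.57), and Hspg2, perlecan, and Nid1, nidogen, were 6.69-fold and 4.56-fold higher in heart. The first heart library was the highest for Col4a1 and Col4a2, and the whole list summed to 32234 CPM in it and to 23176 and 20069 CPM in the others, against 15801 to 18468 CPM in brain. Col15a1, which binds basement membrane to interstitial collagen, was at 29.2 ± 18.6 CPM in heart and 0.717 ± 0.581 CPM in brain. Fn1, fibronectin, was at 1394, 1004 and 1162 CPM in brain and 313, 216 and 174 CPM in heart, and Agrn, agrin, was 2.27-fold higher in brain. Lamb2 and Lama5 did not pass (-0.18 ± 0.15 and -0.29 ± 0.22). Fibroblasts also make many of these proteins, and their marker sums, given above, were higher in heart as well, and their part in the result was not tested.

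Cell cycle genes were higher in heart for 8 of 20 and in brain for 0 by edgeR (0 also at an unadjusted p under 0.05 and by DESeq2; median 3.49). Top2a, topoisomerase II of dividing cells, was at 29.9, 15.3 and 10.4 CPM in heart and had 1 count in brain, and Tpx2, a spindle protein, was at 17.4, 37.4 and 3.83 CPM with 2 counts in brain. Cenpf, a centromere protein, was at 17.04, 4.31 and 4.26 CPM in heart and 0.229, 0.0238 and 0 CPM in brain. Mki67, the proliferation marker, was at 9.82, 4.56 and 8.06 CPM in heart and 0.0509, 0 and 1.02 CPM in brain and did not pass (adjusted p = 0.192). Pcna and Mcm2, of DNA replication, were at 30.6 ± 0.805 and 35.8 ± 8.43 CPM in heart and 30.6 ± 0.439 and 29.7 ± 12.2 CPM in brain and did not pass. The list summed to 390.1, 291.4 and 199.6 CPM in heart and 93.6 to 101.1 CPM in brain, so the first heart library was again the highest. Without it 6 members were called and the median was 2.58.

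Genes that respond to handling of the tissue were compared because digestion can induce them. Immediate early genes were called in brain for 6 of 25 and in heart for 1 (median -0.32, from -0.51 without heart library 1 to -0.16 without heart library 3), and the brain count was 2 without heart library 1, heart library 3, brain library 2 or brain library 3 and 3 without heart library 2, and 1 with the lane term. Nr4a1 was at 1273, 1357 and 1001 CPM in heart and 2136, 2785 and 2862 CPM in brain. Fos, Jun and Egr1 did not pass (0.00 ± 0.24, -0.36 ± 0.16 and 0.34 ± 0.21), and their list summed to 30582 to 48765 CPM in heart and 42464 to 48944 CPM in brain. By edgeR 0 of 14 heat shock genes passed in either direction, with 1 in each at an unadjusted p under 0.05, 1 in heart and 0 in brain by DESeq2, and 1 in heart without heart library 3. Heat shock sums were highest in the first library of each organ, at 15143 CPM against 7867 and 5544 CPM in heart and 12691 CPM against 8307 and 9220 CPM in brain. Of 16 glucocorticoid-response genes 4 were higher in brain and 2 in heart (median -0.17, with a range from -1.02 without heart library 1 to 0.06 without brain library 1). Mt1 and Mt2, the metallothioneins, were at 115 ± 25.6 and 43.5 ± 10.6 CPM in brain and 11.9 ± 1.82 and 2.24 ± 0.795 CPM in heart. The heart count of that list was 1 without heart library 1 or 2 or brain library 1 or 2. Mitochondrial transcripts were called in heart for 4 of 9, but between 1 and 7 when 1 library was left out and 1 with the lane term: their sum was 3549 CPM in heart library 1, 10717 and 12124 CPM in heart libraries 2 and 3 and 4981 to 6114 CPM in brain, so the heart libraries lay on both sides of brain.

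**Figure D4:**
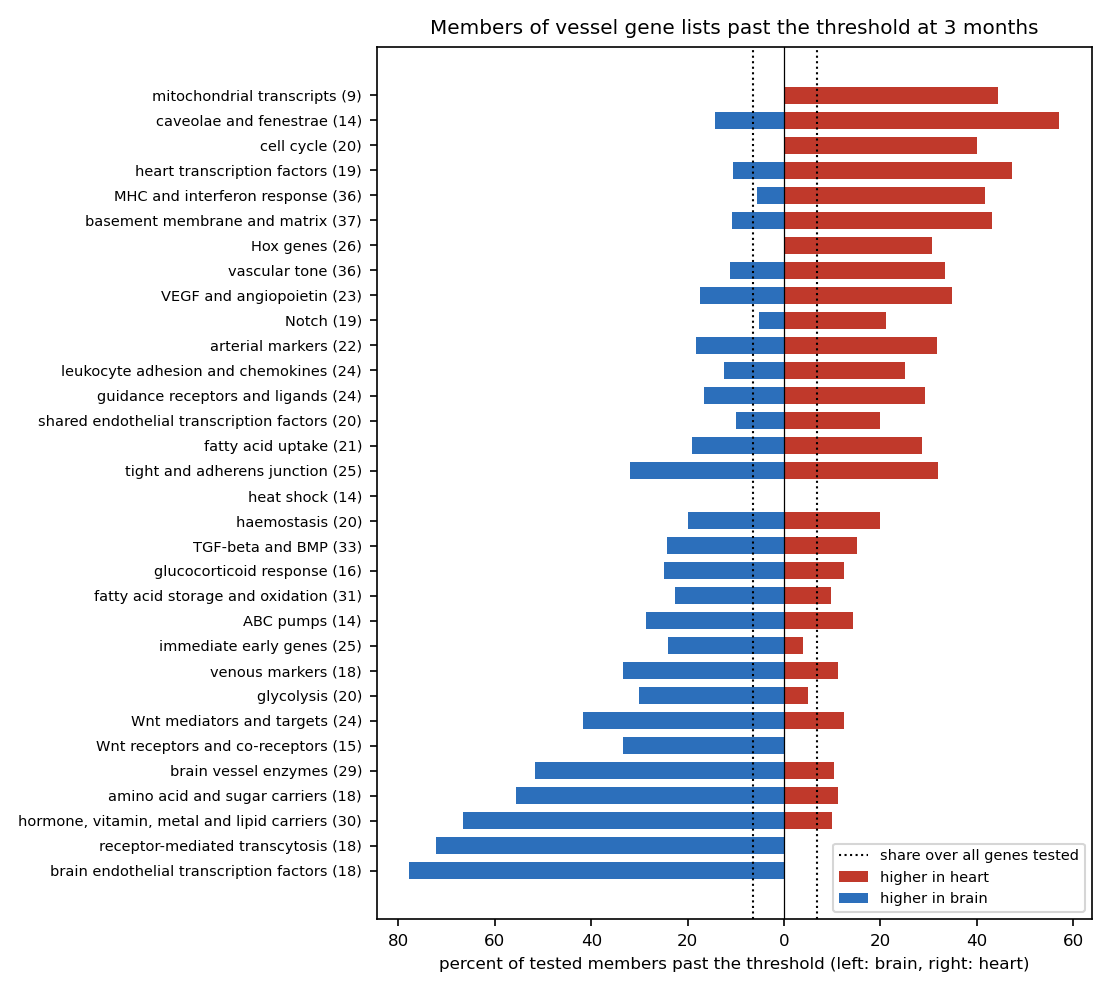
Percent of tested members (number in brackets) of each vessel gene list past the threshold, higher in heart to the right in red and higher in brain to the left in blue, with dotted lines at the shares over all genes tested (6.90% and 6.52%). Brain factors, genes of receptor-mediated transcytosis and carriers extend furthest to the left, and caveolae, heart factors, basement membrane and mitochondrial transcripts furthest to the right.

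The same contrast was available in other libraries, from mice aged 24 months. There 2635 genes differed between heart and brain (14.3%), 1337 higher in heart (7.28%) and 1298 higher in brain (7.07%). At both ages 1728 genes were called in the same direction, which is 70.1% of the calls at 3 months and 65.6% of the calls at 24 months, and 2381 of the 2466 calls at 3 months (96.6%) had the same sign at 24 months. Slc2a1 was -7.32 ± 0.32 at 24 months beside -7.05 ± 0.31 at 3 months, Cd36 10.24 ± 0.75 beside 9.67 ± 0.74, Cldn5 -2.47 ± 0.19 beside -2.92 ± 0.20, Meox2 11.02 ± 0.82 beside 10.76 ± 0.81 and Plvap -1.25 ± 0.28 beside -1.89 ± 0.28. Called in opposite directions were 4 genes, Col4a4, Fst, Spire2 and Clstn3, for which the difference between the ages did not pass (adjusted p = 0.117, 0.181, 0.181 and 0.181). The call of Col4a4 at 3 months was lost without brain library 2 (0.0768). The difference between the ages was itself tested and passed for 11 genes (0.0599%), with 1435 at an unadjusted p under 0.05. Lepr was among them: heart held 0.0606 ± 0.03098 CPM of it in the young and 3.52 ± 0.949 CPM in the old libraries, and brain 53.4 ± 12.7 and 67.6 ± 17.2 CPM. Its organ difference was -9.65 ± 0.46 at 3 months and -4.26 ± 0.33 at 24 months, a change of -5.39 ± 0.53 (adjusted p = 8.49e-04).

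**Figure D5:**
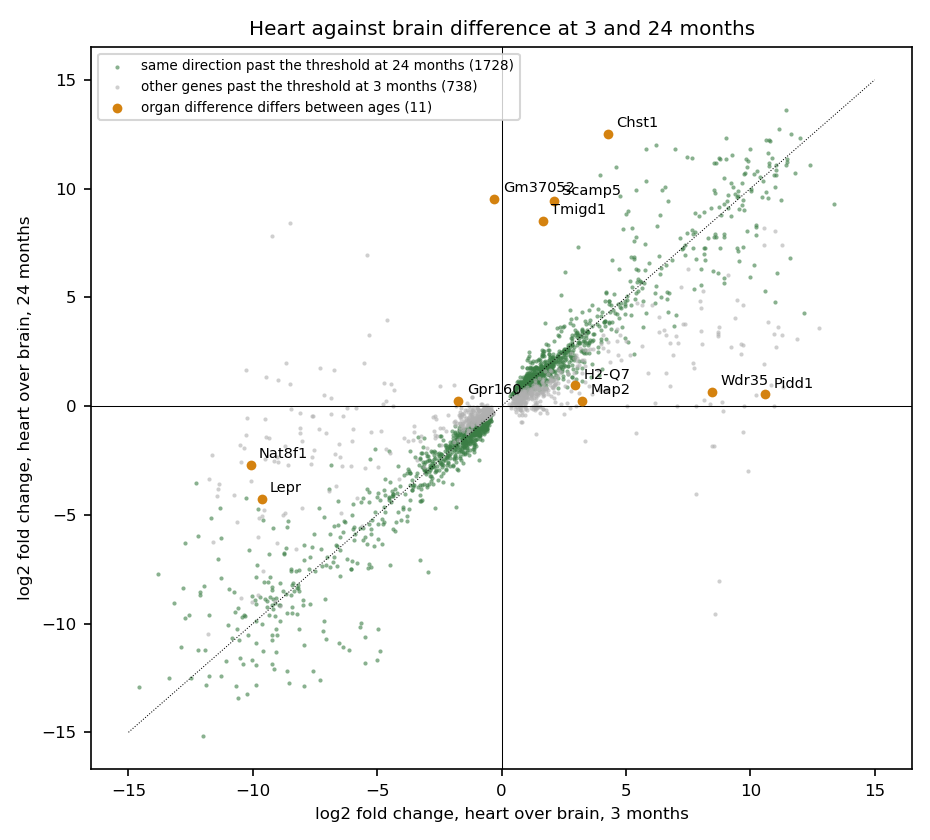
Log2 fold change, heart over brain, at 3 months (horizontal) and at 24 months (vertical) for the genes called at 3 months, in green where called in the same direction at 24 months (1728 genes), with the 11 genes whose organ difference differed between the ages in orange. Most points lie near the dotted line of equal difference, and Gpr160, Map2, Wdr35, Pidd1, Chst1 and Lepr lie off it.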

How the data were processed

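The authors deposited whole-number read counts per Ensembl gene, unnormalized, in 1 table per organ. Per the labels' protocols, cDNA was made with SMART-Seq v4 and libraries with an Ovation kit, and the submitters' processing notes name TopHat2, HTSeq and the GRCm38 (mm10) genome. Versions, strand setting and annotation are not given in the sources used here. The tables were joined by gene, the counting tool's summary lines were dropped, and the 2 runs of heart library 3, which agree within sampling noise (chi-square per degree of freedom 1.085, against 72.1 to 200.3 between different libraries), were summed. Genes kept by filterByExpr (minimum count 10) were scaled by TMM and fitted over all 18 libraries and 6 groups in R 4.3.3 by edgeR 4.0.16 (quasi-likelihood F test). P-values were adjusted over all genes (Benjamini-Hochberg, threshold 0.05), and SE is the fold change over the root of F. RPKM is CPM per kilobase of exon. DESeq2 1.42.0 was an alternative.

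The members and the 45 gene lists were chosen with earlier results of these data known, so no list is independent evidence of its direction. Named are the 12 genes with the largest and the 6 with the highest level in each direction, per list the 3 largest changes per direction and the 2 most abundant genes that did not pass, and 11 families. Further list members were chosen after their values were seen, and some genes that the rule names are not reported here. Symbols matched 45143 of 46078 genes (97.97%). Promoters came from RefSeq (12344 of 18369 genes tested had one), and both strands were searched for the motifs spelled out in the report, and also for a direct repeat of the nuclear receptor letters, the MEF2 motif, the SOX letters ACAATGG and the E-box, whose letters are CACGTG. On simulated counts edgeR recovered 38% of 2-fold and 79% of 4-fold changes, with 5 of 122 calls false over 17287 genes, and for DESeq2 86 of 224 calls were false. Far fewer genes were changed in the simulation than were called in the data, and its counts were drawn with the dispersions that edgeR had estimated. Neither the recovery nor the difference between the tools carries over directly to the data. Same-numbered heart and brain libraries deviated together with r = 0.054, 0.020 and 0.085 across genes, and differently numbered ones with r from -0.064 to 0.0023. The meaning of the numbers is not given in the sources used here. Numbers were therefore not taken as pairs in the main fit, and fits with a replicate block are given below.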

Additional observations from a re-analysis of the deposited data

Results flagged for a closer look

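For 11 genes the organ difference itself differed between 3 and 24 months, by an interaction term of edgeR over all genes tested (3 months minus 24 months, log2). Lepr, the leptin receptor, differed by -5.39 ± 0.53 (adjusted p = 8.49e-04), with heart at 0.0606 ± 0.03098 and then 3.52 ± 0.949 CPM and brain at 53.4 ± 12.7 and then 67.6 ± 17.2 CPM, the young libraries before the old as in all pairs of levels here. It was called in each fit without 1 of the 6 libraries at 3 months and when the 12 heart and brain libraries were fitted alone. H2-Q7, a class I gene, differed by 1.98 ± 0.25 (adjusted p = 0.00877), with heart at 69.1 ± 21.2 and 114 ± 0.644 CPM and brain at 8.92 ± 1.17 and 57.9 ± 4.95 CPM, and its call was lost with the 12 libraries alone (adjusted p = 0.0638) and without all libraries numbered 1 (0.0613). Gpr160 differed by -1.99 ± 0.28, with heart at 17.6 ± 2.75 and 63.5 ± 16.2 CPM and brain at 58.7 ± 8.93 and 53.4 ± 9.07 CPM. Map2, a microtubule protein gene, differed by 2.98 ± 0.49, with heart at 21.3 ± 3.24 and 9.17 ± 3.94 CPM and brain at 2.27 ± 0.408 and 7.72 ± 2.39 CPM.

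The other 7 genes were near 0 in at least 1 group, where a fitted value depends on the prior count and is no bound. Nat8f1 differed by -7.40 and was at 0.003596 ± 0.00623 and 0.886 ± 0.528 CPM in heart and 8.79 ± 3.19 and 5.72 ± 2.86 CPM in brain. Chst1 differed by -8.25, at 33.8 ± 2.33 and 15.7 ± 7.89 CPM in heart and 1.74 ± 0.715 CPM and 0 counts in brain. Scamp5 differed by -7.32, at 18.2 ± 0.899 and 12.3 ± 5.69 CPM in heart and 4.22 ± 3.12 and 0.0146 ± 0.0132 CPM in brain. Tmigd1 differed by -6.87, at 7.58 ± 3.11 and 6.89 ± 0.0972 CPM in heart and 2.41 ± 0.622 and 0.0175 ± 0.0152 CPM in brain. For Wdr35 (7.81) the levels were 3.84 ± 1.67 and 3.42 ± 1.87 CPM in heart and 0.00811 ± 0.0141 and 2.16 ± 1.93 CPM in brain. For Pidd1 (10.04) they were 4.11 ± 2.15 and 3.82 ± 3.09 CPM in heart and 0 counts and 2.596 ± 1.49 CPM in brain. For Gm37052 (-9.82) they were 1.13 ± 0.273 and 1.97 ± 0.886 CPM in heart and 1.38 ± 0.361 CPM and 0 counts in brain. Each of the 11 except Lepr and H2-Q7 lost its call without at least 1 library of the 3-month groups. Without heart library 2 the adjusted p was 0.0532 for Gpr160, Scamp5 and Tmigd1, which kept their calls without each of the other 5. Chst1 lost its call without heart library 1 (adjusted p = 0.0628) or 2 (0.0883). Nat8f1 lost it without heart library 1 (adjusted p = 0.0758), 2 (0.0883) or 3 (0.0594). Wdr35 (adjusted p from 0.0629 to 0.110) and Pidd1 (from 0.0628 to 0.0883) kept their calls only without heart library 3, and Map2 (from 0.0628 to 0.0929) and Gm37052 (from 0.0583 to 0.125) lost theirs without each of the 6. With the 12 libraries alone (adjusted p from 0.0638 to 0.259) and without all libraries numbered 1 (from 0.0612 to 0.413), each of the 11 except Lepr lost its call.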

How the results depend on the processing

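The 2466 calls between heart and brain at 3 months numbered 3544 with DESeq2, 1861 with the 6 libraries fitted alone, 1823 with the sequencing lane as a term, 1923 without all libraries numbered 1 and 1898 to 2149 without 1 library, and of the calls shared with these fits 0 had the opposite direction. With the replicate block and the 6 libraries fitted alone they were 1266, 658 higher in heart and 608 in brain, where fewer residual degrees of freedom remain. With the replicate block over all 18 libraries there were 2537, and each library correlated best with its own number in the other organ, a hint from the data and not from the design. The 11 genes whose organ difference differed between the ages were 295 with DESeq2, 1 with the 12 heart and brain libraries alone, 8 with the replicate block and 4 without all libraries numbered 1, and 3 to 16 without 1 library, with 3 without heart library 2 and 7 without heart library 1. The cause was not tested. No fold change of a named gene or list member past the threshold changed sign under any alternative run. With 3 libraries a group, 2-fold changes were often missed in the simulation. Levels under 0.0177 CPM in heart and 0.0245 CPM in brain lie below 3 counts over the group.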
